A study of Mus musculus with 16 samples.

Results

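The enzymes that modify and crosslink collagen were followed in cultured mouse bone marrow cells. The set held 10 genes, chosen by name out of 13474 in the table: the lysyl oxidases Lox, Loxl1, Loxl2, Loxl3 and Loxl4, the lysyl hydroxylases Plod1, Plod2 and Plod3, and the catalytic subunits P4ha1 and P4ha2 of prolyl 4-hydroxylase. All 10 were measured and passed the filter on low counts. Inside the cell, prolyl 4-hydroxylase converts prolines of the new collagen chain to hydroxyproline, which keeps the triple helix stable at body temperature, and the lysyl hydroxylases convert chosen lysines to hydroxylysine. Both need iron, oxygen, 2-oxoglutarate and ascorbate. Outside the cell, the copper-dependent lysyl oxidases turn lysines and hydroxylysines into aldehydes, which join neighbouring collagen or elastin molecules into the crosslinked fibres that give bone matrix its strength.

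The cells were C57BL/6 mesenchymal stem/progenitor cells (MSPCs), marrow stromal cells at passage 5-10 that can form bone, cartilage and fat cells. They were labelled WT or KO (Nmp4-/-) for Zfp384, the gene of the DNA-binding zinc finger protein Nmp4. The day 3 groups were plated at 25 cells/mm2 in a non-differentiating Mesencult medium and received no treatment. The day 7 groups were plated at 62 cells/mm2 in α-MEM with serum, and from 48 hours they also received 5 µg/mL ascorbic acid, 10 nM dexamethasone and 10 mM glycerol 2-phosphate, the supplements that start osteogenic differentiation. Each of the 4 groups held 4 libraries, 16 in all. According to the series text the 4 libraries of a condition are technical replicates of 1 biological replicate, so every p-value here measures the spread between wells. A difference between genotypes is a difference between 1 WT and 1 KO culture, and day cannot be told apart from density, medium and supplements.

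Total counts ran from 31285188 to 47635039 per library. The targeted gene did not check the labels: Zfp384 stood at 84.0, 80.6, 81.8 and 81.0 CPM in WT and 93.5, 89.7, 92.3 and 90.6 CPM in KO at day 3, and at 89.5, 87.9, 83.8 and 91.3 CPM against 111, 116, 122 and 119 CPM at day 7. Its RNA was higher, not lower, in the KO libraries, so KO below means the libraries labelled KO. Values are CPM, read counts over a library size scaled by trimmed means, and folds come with an approximate standard error and an adjusted p from edgeR's quasi-likelihood test. Whole chromosomes also differed between the genotypes: the median log2 fold change of KO against WT at day 3 was 0.68 on chromosome 4, 0.68 on chromosome 18, -0.44 on chromosome 11 and -0.38 on chromosome 6, while the median of all genes was 0.00. The highest median was 0.82, on chromosome 13, and the lowest -0.46, on chromosome 12, neither of which carries any of the 10 enzymes. For each of the 10 enzymes the genotype difference is therefore given again after the median of its own chromosome was subtracted, called chromosome-centred here. Summed markers of other cell types moved with genotype as well. Macrophage and blood markers summed to 109.6 to 124 CPM in WT and 23.8 to 31.3 CPM in KO at day 3, with Ptprc, Adgre1 and Itgam under 1 CPM in KO, and to 124 to 144 and 10.5 to 13.4 CPM at day 7. Chondrocyte markers summed to 4448 to 5005 and 48.8 to 63.6 CPM at day 3, and to 808 to 875 and 49.9 to 59.6 CPM at day 7. Col2a1 carried the lower sum in KO, while Acan was at 0 counts in WT and averaged 2.07 and 5.69 CPM in KO. Sox9 was lower in KO at day 3 (-1.59) and called higher at day 7 (0.15, adjusted p = 0.0192, centred 0.57), with overlapping libraries. The 7 stromal progenitor markers were detected in every group, summing to 5604 to 5792 CPM in WT and 1348 to 1384 CPM in KO at day 3, and to 6543 to 7212 and 1068 to 1154 CPM at day 7. Cxcl12 alone averaged 4831, 848, 5914 and 149.6 CPM of these sums in the order WT day 3, KO day 3, WT day 7 and KO day 7. Against the sums, Nt5e was higher in KO at both days (1.03 and 1.92) and Pdgfrb at day 7 (0.85, centred 0.24). At day 3 no difference was called for Pdgfrb (-0.01), but its centred value of -0.61 was called (adjusted p = 2.04e-15). The part of these cell types in the results was not tested, and in such bulk RNA fewer cells of a type cannot be told apart from less RNA per cell.

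The 10 enzymes did not move as a block. At day 3, KO exceeded WT for Loxl1, Loxl2, Plod1, Plod2 and P4ha1 and fell below it for Loxl3, Loxl4 and Plod3, although the sign for Loxl4 and Plod3 turns with the authors' library sizes. At day 7, KO exceeded WT for Lox, Plod1, Plod3, P4ha1 and P4ha2 and fell below it for Loxl1 and Loxl3. That made 5 members called higher and 3 lower at day 3, at a Benjamini-Hochberg adjusted p under 0.05, against a background of 43.0% of all genes called higher and 43.4% called lower. It made 5 higher and 2 lower at day 7, against 41.7% and 44.3%. Calls of at least 2-fold were 1 higher and 1 lower at day 3, where 11.7% and 17.2% of all genes passed, and 3 higher and 2 lower at day 7, where 13.7% and 16.9% passed. From day 3 to day 7, 4 members rose and 4 fell in WT (background 32.3% and 34.9%), with 1 of the rises reaching 2-fold (5.89% of all genes rose and 3.79% fell by as much). In KO 5 rose and 3 fell (40.6% and 39.3%), with 1 and 1 by 2-fold (12.5% and 8.79%). The interaction, which is the genotype difference at day 7 minus that at day 3, was called above 0 for 6 members and below 0 for 3 (32.5% and 33.5%), with 2 and 2 by 2-fold (9.21% and 7.04%). With calls this common in the whole table, the counts without a fold threshold lie near the background, apart from the 6 interactions above 0. The 2-fold calls at day 7 and for the interaction, both directions together, exceed the shares of all genes. The median absolute log2 fold change was 1.05 against 0.59 for all genes at day 7, and 0.68 against 0.37 for the interaction. The enzymes were chosen with earlier results of these data known, so no conclusion is drawn from this excess. The sizes and directions of the single enzymes carry the description.

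**Figure D1:**
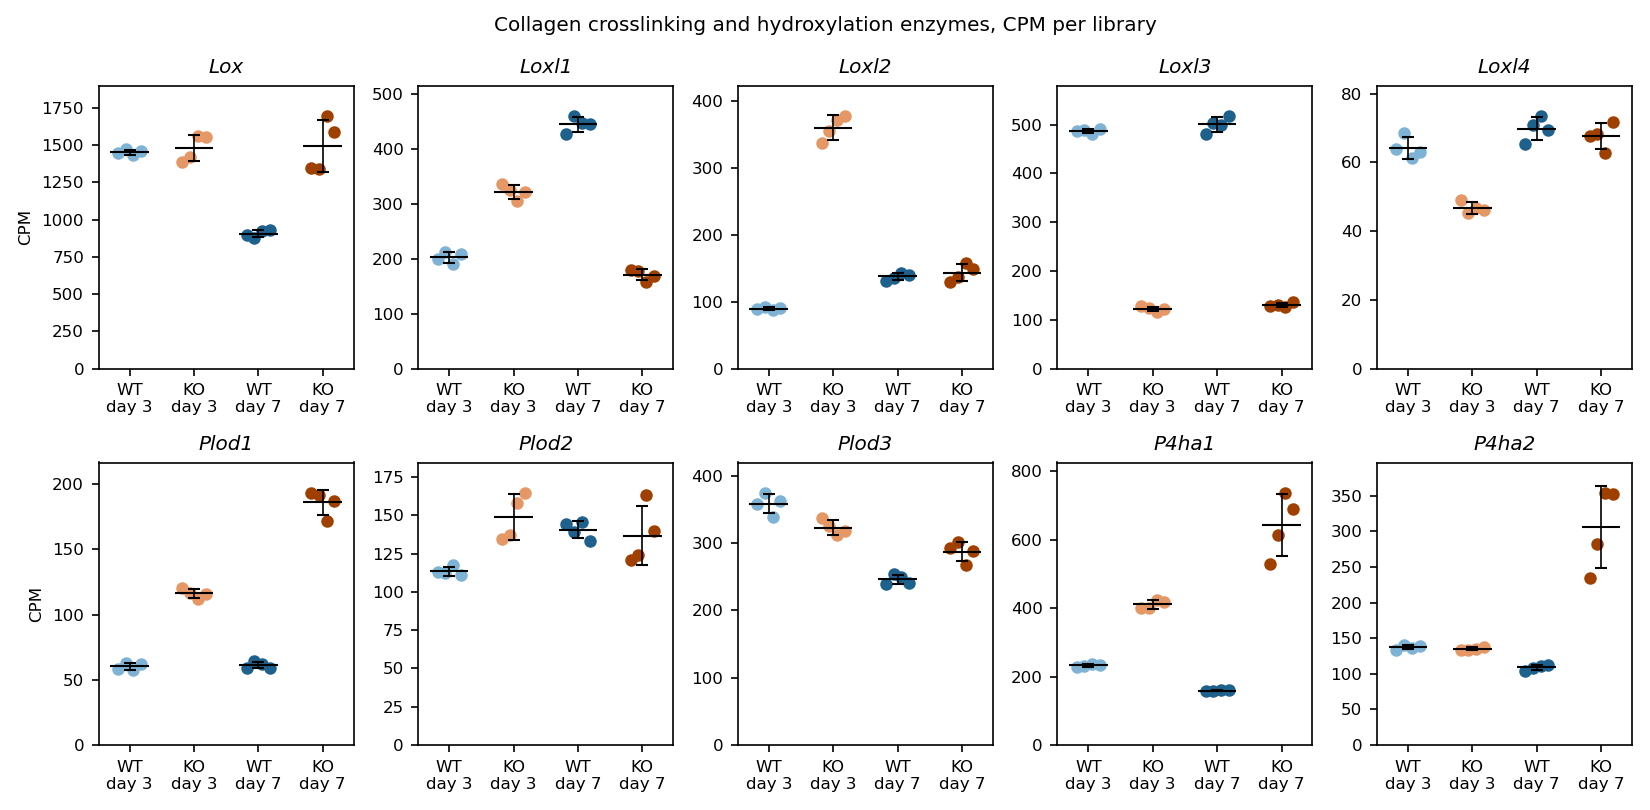
CPM of each of the 10 enzymes in the 16 libraries, with 1 point per library, a horizontal line at the group mean and bars of 1 SD (4 libraries per group). Loxl3 stood near 122 to 131 CPM in both KO groups and near 487 to 501 CPM in both WT groups, while P4ha1 and P4ha2 were highest in the KO day 7 libraries.

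The lysyl oxidases differed in pattern from each other. Loxl3 was about 4-fold lower in KO on both days. Loxl2 was raised 4.02-fold in KO at day 3, and no difference was called at day 7. Loxl1 reversed, higher in KO at day 3 and lower at day 7. Lox, the founding member of the family, fell between the days in WT, with no change called in KO, and the group means of Loxl4 spanned the narrowest range.

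Lox (chr18:52516060-52529867, minus strand, mm10) encodes the enzyme secreted as a proenzyme and activated by removal of its propeptide. At day 3 it stood at 1446, 1473, 1433 and 1459 CPM in WT and at 1389.7, 1421, 1561 and 1552 CPM in KO, and these ranges overlap. At day 7 the WT libraries held 898, 875, 921 and 933 CPM and the KO libraries 1349, 1342, 1694 and 1591 CPM. All 4 WT libraries of day 7 lay below every other library, and the KO libraries of day 7 fell into a lower and a higher pair. In WT the level fell 1.60-fold between the days (log2 fold change -0.68 ± 0.06, adjusted p = 1.56e-09), and in KO no change was called (log2 fold change 0.01 ± 0.06, adjusted p = 0.848). The genotypes were not called different at day 3 (log2 fold change 0.03 ± 0.06, adjusted p = 0.657, but 0.53 with the authors' library sizes and adjusted p = 7.7e-06), and at day 7 KO was 1.65-fold higher (log2 fold change 0.72 ± 0.06, adjusted p = 2.13e-10). That day 7 difference lies close to the median of 0.61 for its chromosome: the chromosome-centred value was 0.11 (adjusted p = 0.0748), and the one at day 3 was -0.57 (adjusted p = 9.97e-09). The interaction of 0.69 (adjusted p = 2.34e-07) was the same size after centring, at 0.69.

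Loxl1 (chr9:58287723-58313212, minus strand) encodes the family member best known for crosslinking elastin in mouse tissues. WT libraries held 199.8, 213, 191 and 209 CPM at day 3 and 428, 460.2, 448 and 446 CPM at day 7. In KO the values were 337, 325, 305 and 322 CPM at day 3 and 179.9, 177, 158 and 169 CPM at day 7. The 2 cultures therefore moved in opposite directions between the days, and no group overlapped another that it was compared with. Loxl1 rose 2.19-fold in WT (log2 fold change 1.13 ± 0.04, adjusted p = 1.02e-19) and fell 1.89-fold in KO (log2 fold change -0.91 ± 0.04, adjusted p = 4.44e-18). Against WT it was 1.59-fold higher in KO at day 3 (log2 fold change 0.66 ± 0.04, adjusted p = 4.76e-15) and 2.61-fold lower at day 7 (log2 fold change -1.38 ± 0.04, adjusted p = 1.28e-22). The interaction of -2.05 ± 0.06 (adjusted p = 5.37e-22) was the lowest among the 10 enzymes, and chromosome-centred genotype differences kept both signs, at 0.90 and -1.16.

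Loxl2 (chr14:69609476-69695834, plus strand) belongs with Loxl3 and Loxl4 to the branch of the family that carries scavenger receptor domains. Its day 3 values were 89.5, 91.7, 87.6 and 90.2 CPM in WT and 337, 356, 372 and 378 CPM in KO. At day 7 they were 131, 136, 144 and 140.4 CPM in WT and 129, 136, 159 and 149 CPM in KO, which overlap. The KO day 3 libraries stood far above the other 12. KO exceeded WT 4.02-fold at day 3 (log2 fold change 2.01 ± 0.05, adjusted p = 1.19e-22, centred 2.17), while the day 7 difference was 0.06 ± 0.05 (adjusted p = 0.261). Loxl2 rose 1.53-fold between the days in WT (log2 fold change 0.62 ± 0.05, adjusted p = 2.74e-11) and fell 2.52-fold in KO (log2 fold change -1.33 ± 0.05, adjusted p = 7.28e-19), with an interaction of -1.95 (adjusted p = 1.89e-18). The small day 7 difference passed the test when centred on its chromosome (0.20, adjusted p = 0.000386) at 0.64 with the authors' library sizes (adjusted p = 5.27e-09) and, at 0.10, without KO library 13 (adjusted p = 0.0323).

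Loxl3 (chr6:83034224-83052564, plus strand) is required for palate and spine formation in mice. The day 3 libraries held 486, 489, 480.3 and 491 CPM in WT and 127, 123, 116 and 121 CPM in KO. The day 7 libraries held 482, 504, 499.7 and 517 CPM in WT and 129, 130.2, 126 and 137 CPM in KO. Every WT library was above 480 CPM and every KO library below 138 CPM, with little movement between the days. KO was 3.99-fold lower at day 3 (log2 fold change -2.00 ± 0.03, adjusted p = 2.6e-28) and 3.84-fold lower at day 7 (log2 fold change -1.94 ± 0.03, adjusted p = 3.15e-28), and chromosome-centred values were -1.62 and -1.64. It was the only 1 of the 10 enzymes whose interaction was not called (0.06 ± 0.05, adjusted p = 0.306). In KO a rise of 0.10 between the days passed the test (adjusted p = 0.0122), but not without KO day 3 library 7 (0.07, adjusted p = 0.0626) or KO day 7 library 16 (0.07, adjusted p = 0.0673), and the centred value was -0.00 (adjusted p = 0.944). In WT the difference was 0.04 (adjusted p = 0.276). Exons of Htra2 on the opposite strand cover 534 bases, or 13.2%, of the counted length of Loxl3. The libraries were strand-specific, but no source used here says whether the counting used strand.

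Loxl4 (chr19:42592279-42612806, minus strand) was the lowest of the 10 per kilobase in every group. It stood at 64.0, 68.5, 61.3 and 63.1 CPM in WT and 49.2, 45.3, 46.7 and 46.1 CPM in KO at day 3. At day 7 it stood at 65.3, 71.0, 73.4 and 69.5 CPM in WT and 67.6, 68.4, 62.7 and 71.8 CPM in KO. The KO day 3 libraries were below all others, and the other 3 groups overlapped. The day 3 difference was 1.37-fold (log2 fold change -0.46 ± 0.05, adjusted p = 2.57e-10), which was -0.39 when centred and became 0.04 with the authors' library sizes, under which the median of all genes was 0.49. No difference between genotypes was called at day 7 (log2 fold change -0.05 ± 0.04, adjusted p = 0.322, centred -0.03). That value became 0.53 with the authors' sizes (adjusted p = 1.01e-11) and -0.17 with total counts only (adjusted p = 0.000506), both called. In KO the level rose 1.44-fold by day 7 (log2 fold change 0.53 ± 0.05, adjusted p = 1.5e-11). In WT a rise of 0.12 (adjusted p = 0.0173) was lost without WT day 3 library 3 (0.10, adjusted p = 0.0707) or WT day 7 library 10b (0.10, adjusted p = 0.0735), and the interaction was 0.41 (adjusted p = 2.15e-06).

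Per kilobase of gene length, the 5 lysyl oxidases summed to 505 ± 8.30 CPM per kilobase in WT and 505 ± 17.0 in KO at day 3, and to 480.4 ± 10.4 and 426 ± 35.2 at day 7 (SD, n = 4). The totals of the 2 day 3 groups were close, and the KO day 7 libraries, at 396 to 464, lay below the lowest library of WT day 7, at 466. These totals depend on the scaling: with the authors' library sizes the all-gene median was 0.49 at day 3 and 0.55 at day 7. The make-up differed as well. Shares within a family do not depend on how libraries are scaled, but they are not chromosome-centred. Lox held 58.3% ± 0.296 of the total in WT and 59.4% ± 1.61 in KO at day 3, then 38.3% ± 0.875 in WT and 70.9% ± 2.55 in KO at day 7. Loxl3 held 23.8% ± 0.204 and 25.7% ± 0.327 in the WT groups and 5.97% ± 0.400 and 7.59% ± 0.642 in the KO groups. Loxl1 went from 12.1% ± 0.403 to 27.8% ± 0.682 in WT and from 19.1% ± 1.3 to 12.1% ± 1.67 in KO. Loxl2 held 13.8% ± 0.304 in KO day 3, against 3.43% to 6.49% in the other groups, and Loxl4 held 1.71% to 2.93%. In WT at day 7 the sum was therefore spread over Lox, Loxl1 and Loxl3, and in KO at day 7 most of it was Lox.

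**Figure D2:**
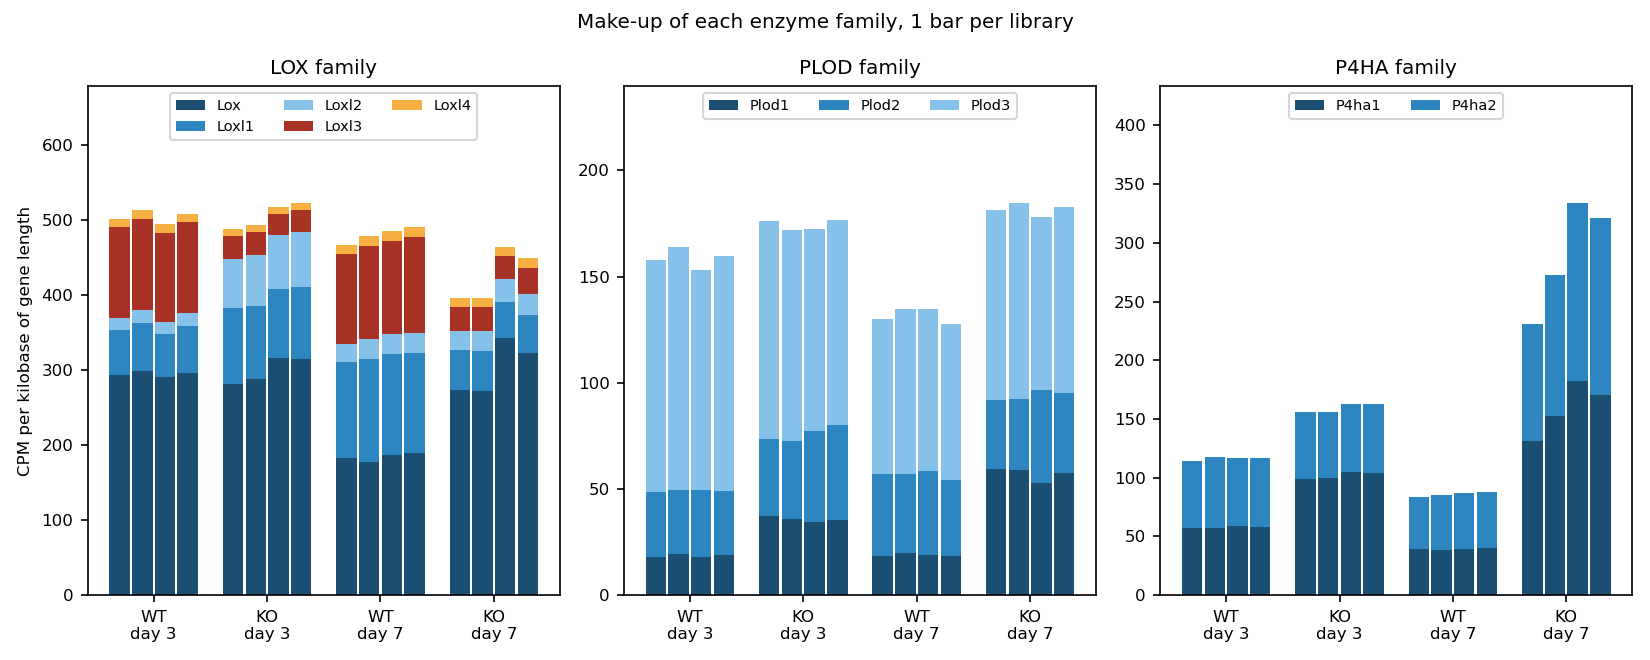
CPM per kilobase of gene length in each library (1 bar per library, 4 bars per group), stacked by enzyme, for the lysyl oxidases, the lysyl hydroxylases, and P4ha1 with P4ha2. The Loxl3 part is wide in the WT bars and narrow in the KO bars, and the KO day 7 bars of P4ha1 and P4ha2 run from 231 to 334.

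The lysyl hydroxylases moved by smaller steps, apart from Plod1. Plod1 was 1.93-fold higher in KO at day 3 and 3.05-fold higher at day 7. Plod2 was higher in KO at day 3, and at day 7 its groups overlapped. Plod3, the most abundant of the family per kilobase in every group, fell between the days in both cultures, less so in KO.

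Plod1 (chr4:147909753-147936776, minus strand) encodes lysyl hydroxylase 1, which acts on lysines of the triple helix and whose loss in humans causes a form of Ehlers-Danlos syndrome. WT libraries held 58.5, 63.0, 57.5 and 62.0 CPM at day 3 and 59.1, 64.0, 61.8 and 59.1 CPM at day 7. KO libraries held 121, 116, 112 and 116 CPM at day 3 and 193, 192, 172 and 187 CPM at day 7. Every KO library exceeded every WT library, and the KO day 7 values exceeded those of KO day 3. The genotype difference was 0.95 ± 0.04 on the log2 scale at day 3 (adjusted p = 9.91e-19) and 1.61 ± 0.04 at day 7 (adjusted p = 2.12e-24). Chromosome 4, where Plod1 lies, had a median difference of 0.68 at day 3 and 0.61 at day 7, and the centred values were 0.34 and 1.03. Between the days Plod1 rose 1.60-fold in KO (log2 fold change 0.68 ± 0.04, adjusted p = 1.69e-15), no change was called in WT (log2 fold change 0.02 ± 0.04, adjusted p = 0.71), and the interaction was 0.66 (adjusted p = 3.98e-11).

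Plod2 (chr9:92542223-92608427, plus strand) encodes lysyl hydroxylase 2, the form that hydroxylates telopeptide lysines and so steers collagen toward the stable crosslinks of bone. At day 3 it stood at 113, 112, 118 and 111 CPM in WT and at 135, 137, 158 and 165 CPM in KO. At day 7 it stood at 144, 139, 145 and 133 CPM in WT and at 121, 124, 163 and 139.5 CPM in KO. The KO libraries were the more scattered, with libraries 7 and 8 high at day 3 and library 15 high at day 7. KO exceeded WT 1.31-fold at day 3 (log2 fold change 0.39 ± 0.09, adjusted p = 0.000681), and no difference was called at day 7 (log2 fold change -0.04 ± 0.09, adjusted p = 0.675). The centred values were 0.63 and 0.18, and with the authors' sizes the day 7 value was 0.55 (adjusted p = 0.000314). Plod2 rose 1.24-fold in WT (log2 fold change 0.31 ± 0.09, adjusted p = 0.00558), a call lost with the authors' sizes (0.22, adjusted p = 0.101). In KO the change was -0.12 (adjusted p = 0.216), which became a called fall of -0.22 without library 15 (adjusted p = 0.00639), and the interaction was -0.43 ± 0.12 (adjusted p = 0.00636), likewise lost with the authors' sizes (-0.34, adjusted p = 0.0713). Exons of B430319G15Rik on the opposite strand share 346 bases, 9.3% of the length, with Plod2.

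Plod3 (chr5:136987019-136996646, plus strand) encodes lysyl hydroxylase 3, which in addition adds sugars to hydroxylysine. Day 3 values were 359, 375, 339.6 and 362 CPM in WT and 338, 325, 313 and 317 CPM in KO. Day 7 values were 240.0, 253, 250.2 and 241 CPM in WT and 293, 302, 267 and 288 CPM in KO. WT was the higher culture at day 3 by a narrow margin and the lower at day 7. The level fell 1.46-fold in WT (log2 fold change -0.54 ± 0.04, adjusted p = 2.29e-13) and less in KO (log2 fold change -0.17 ± 0.04, adjusted p = 0.000157). KO was 1.11-fold lower at day 3 (log2 fold change -0.15 ± 0.04, adjusted p = 0.000483), a sign that turned to 0.35 with the authors' library sizes, still under their all-gene median of 0.49. At day 7 KO was 1.17-fold higher (log2 fold change 0.22 ± 0.04, adjusted p = 3.02e-06), the centred values were -0.29 and 0.12, and the interaction was 0.37 (adjusted p = 3.96e-07). Znhit1 on the opposite strand shares 315 exon bases with Plod3, 9.6% of its length.

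Within the family, Plod3 held 69.0% ± 0.898 of the summed CPM per kilobase in WT at day 3, 56.6% ± 1.77 in KO at day 3, 57.0% ± 0.658 in WT at day 7 and 48.3% ± 1.85 in KO at day 7. Plod1 held 11.7% ± 0.254 and 14.2% ± 0.289 in the WT groups and 20.5% ± 0.515 and 31.4% ± 1.35 in the KO groups. Plod2 took 28.7% ± 0.906 in WT day 7 and 19.3% to 23.0% in the other groups. Without chromosome centring, the helical form Plod1 therefore overtook the telopeptide form Plod2 in KO at day 7. There the Plod1 share of 29.6% to 32.8% lay above the Plod2 share of 17.9% to 24.7%. The median genotype difference at day 7 was 0.61 on chromosome 4, of Plod1, and -0.24 on chromosome 9, of Plod2. Whether the order of the shares would hold after centring was not tested.

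P4ha1, P4ha2 and Plod1 were the enzymes raised most in KO at day 7. P4ha1 was 4.05-fold and P4ha2 2.81-fold higher in KO than in WT at day 7. Both fell between the days in WT and rose in KO. At day 3 P4ha1 was already higher in KO, and P4ha2 was level.

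P4ha1 (chr10:59323296-59373304, plus strand) encodes the main catalytic subunit of prolyl 4-hydroxylase in most cells. WT libraries held 229, 231, 237 and 234 CPM at day 3 and 157, 157, 160.2 and 161 CPM at day 7. KO libraries held 400.3, 401, 425 and 419 CPM at day 3 and 529.6, 615, 738 and 689.5 CPM at day 7. No 2 groups overlapped, and the KO day 7 libraries spread over the widest range. KO exceeded WT 1.77-fold at day 3 (log2 fold change 0.82 ± 0.07, adjusted p = 2.11e-09) and 4.05-fold at day 7 (log2 fold change 2.02 ± 0.07, adjusted p = 3.63e-15), with centred values of 1.05 and 2.19. P4ha1 fell 1.47-fold in WT (log2 fold change -0.55 ± 0.07, adjusted p = 1.3e-06) and rose 1.56-fold in KO (log2 fold change 0.64 ± 0.07, adjusted p = 6.93e-08). The interaction was 1.20 ± 0.10 (adjusted p = 3.63e-09).

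P4ha2 (chr11:54100924-54131667, plus strand) encodes the second catalytic subunit, known from mice to be used by bone- and cartilage-forming cells. At day 3 it stood at 134, 141, 136 and 139 CPM in WT and 134, 134, 135 and 138 CPM in KO, which overlap. At day 7 it stood at 104, 108, 111 and 112 CPM in WT and 235, 282, 354 and 352 CPM in KO. The KO day 7 libraries were above all others but differed among themselves, library 13 being the lowest. KO exceeded WT 2.81-fold at day 7 (log2 fold change 1.49 ± 0.10, adjusted p = 5.83e-09), and no difference was called at day 3 (log2 fold change -0.03 ± 0.10, adjusted p = 0.819). On its chromosome the median genotype difference was -0.44 at day 3 and -0.46 at day 7, and the centred values were 0.42 (adjusted p = 0.00191) and 1.91 (adjusted p = 4.03e-10). P4ha2 fell 1.26-fold in WT (log2 fold change -0.34 ± 0.10, adjusted p = 0.0107), rose 2.26-fold in KO (log2 fold change 1.18 ± 0.10, adjusted p = 9.65e-08), and had the highest interaction of the 10, 1.52 ± 0.15 (adjusted p = 5.12e-07). Per kilobase, P4ha2 equalled 1.02 ± 0.0256 times P4ha1 in WT day 3 and 1.18 ± 0.0292 times in WT day 7, against 0.567 ± 0.0125 and 0.817 ± 0.0504 times in the KO groups.

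**Figure D3:**
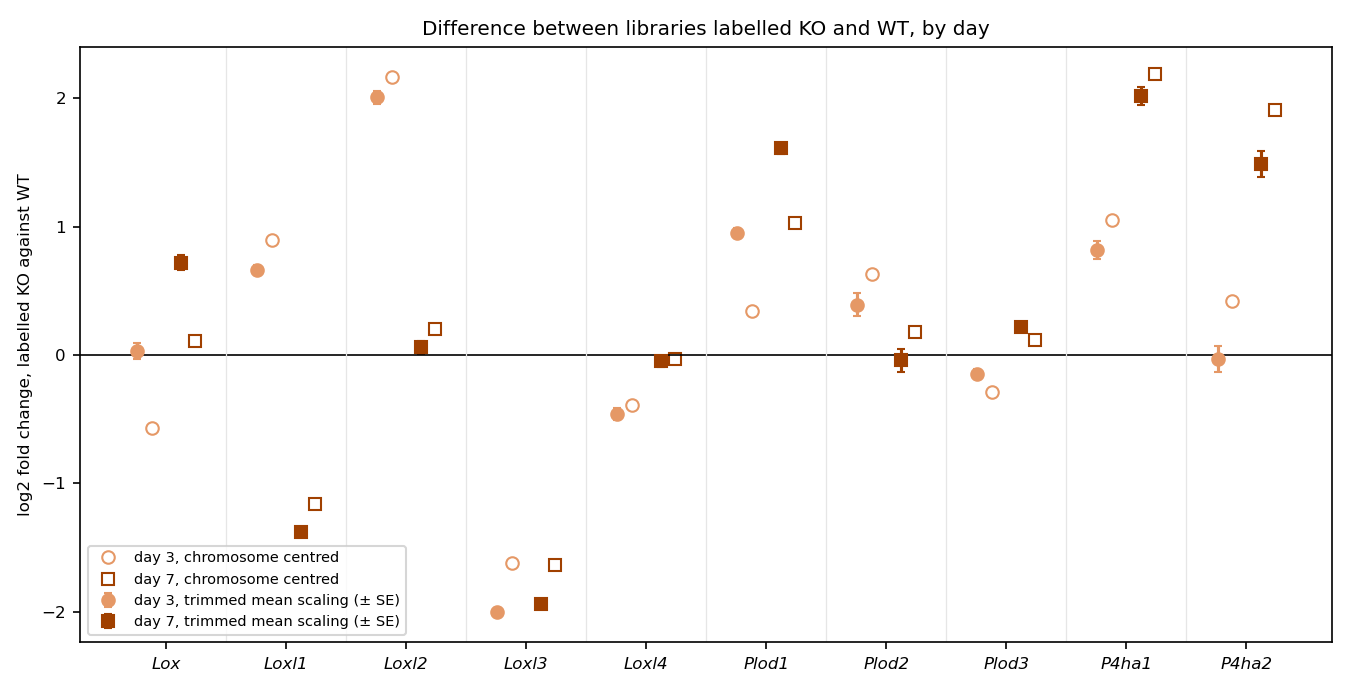
log2 fold change of KO against WT for the 10 enzymes at day 3 (circles) and day 7 (squares). Filled symbols use trimmed mean scaling with bars of 1 approximate standard error, and open symbols are centred on the median of the gene's chromosome. Loxl3 lies near -2 on both days, Loxl2 near 2 at day 3 only, and P4ha1 and P4ha2 lie above 1.4 at day 7 in both versions.

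Promoter windows are shown for the enzymes that rose between the days in KO by the most, P4ha1, P4ha2 and Plod1, and for Plod3, which fell. The windows run from 250 bases before to 50 bases after the start site (RefSeq, GRCm38.p6), 5′ to 3′ on the gene's strand, and capitals mark each match to the core letters bound by hypoxia-inducible factors, ACGTG or GCGTG, on either strand. P4ha1 is chr10:59323046-59323345 on the plus strand, P4ha2 is chr11:54100674-54100973 on the plus strand, Plod1 is chr4:147936727-147937026 on the minus strand and Plod3 is chr5:136986769-136987068 on the plus strand.
P4ha1: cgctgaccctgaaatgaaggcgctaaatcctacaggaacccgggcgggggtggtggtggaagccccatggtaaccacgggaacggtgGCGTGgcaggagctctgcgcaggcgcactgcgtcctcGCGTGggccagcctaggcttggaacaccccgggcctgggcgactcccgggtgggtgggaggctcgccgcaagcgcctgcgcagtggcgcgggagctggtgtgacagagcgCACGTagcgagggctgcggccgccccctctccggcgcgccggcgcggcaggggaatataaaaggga
P4ha2: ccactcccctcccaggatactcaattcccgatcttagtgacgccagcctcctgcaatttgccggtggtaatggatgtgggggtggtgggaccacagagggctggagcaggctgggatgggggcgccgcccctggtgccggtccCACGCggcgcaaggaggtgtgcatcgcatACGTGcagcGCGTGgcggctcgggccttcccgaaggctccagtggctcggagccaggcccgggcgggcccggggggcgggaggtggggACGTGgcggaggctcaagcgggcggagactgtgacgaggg
Plod1: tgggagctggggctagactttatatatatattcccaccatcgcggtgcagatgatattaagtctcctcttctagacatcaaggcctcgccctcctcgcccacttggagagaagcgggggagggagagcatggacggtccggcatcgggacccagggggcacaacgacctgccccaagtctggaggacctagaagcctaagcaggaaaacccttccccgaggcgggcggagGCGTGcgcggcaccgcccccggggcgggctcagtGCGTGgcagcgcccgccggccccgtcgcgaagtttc
Plod3: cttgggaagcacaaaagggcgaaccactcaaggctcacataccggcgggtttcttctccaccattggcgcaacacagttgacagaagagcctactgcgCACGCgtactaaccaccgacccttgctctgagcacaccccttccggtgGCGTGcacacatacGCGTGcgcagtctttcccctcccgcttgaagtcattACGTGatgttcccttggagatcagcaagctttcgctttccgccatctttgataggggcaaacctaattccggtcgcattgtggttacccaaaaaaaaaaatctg
P4ha1 held 3 matches, at -163, -126 and -16 from the start site. P4ha2 held 4, at -107, -78, -69 and 10, Plod1 held 2, at -20 and 14, and Plod3 held 4, at -152, -104, -90 and -54. The window of Loxl4, the remaining enzyme of the 5 with an entry, held 1, at -162. Of all 32851 windows of this length in the table, 43.8% held at least 1 match. That share was not matched for GC content, which was 53.3% (Plod3) to 75.0% (Loxl4) in the 5 windows. Plod3, whose level fell between the days in KO, held as many matches as P4ha2. The part of these matches in the levels was not tested. The core TGATGNAA, known from genes of the amino acid response, was in none of the 5 windows on either strand and in 3.97% of all. A match describes letters and is not a measured site.

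Several partners act with these enzymes on the new chain. The list held 14 such genes, of which 13 were measured: 5 were called higher and 7 lower in KO at day 3 (median log2 fold change -0.11), and 7 higher and 6 lower at day 7 (median 0.33), while the medians of all genes were 0.00 and -0.03. Between the days 7 rose and 2 fell in WT, and 8 rose and 4 fell in KO. The list therefore split in both directions in every comparison. Of all genes, 43.0% were called higher and 43.4% lower in KO at day 3, and 41.7% and 44.3% at day 7. Between the days 32.3% of all genes rose and 34.9% fell in WT, and 40.6% rose and 39.3% fell in KO. These shares are the background for the lists below as well.

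P4hb, the β subunit that holds the catalytic subunits of prolyl 4-hydroxylase in solution and also works as protein disulfide isomerase, had group means of 1683, 1555, 1436 and 2123 CPM in WT day 3, KO day 3, WT day 7 and KO day 7. It fell in WT (-0.23, adjusted p = 5.42e-07) and rose in KO (0.45, adjusted p = 3.69e-13), as P4ha1 and P4ha2 did, by smaller steps. At day 7 it was higher in KO (0.56, adjusted p = 1.24e-15), and at day 3 its difference of -0.11 turned to 0.33 when centred and to 0.39 with the authors' sizes. Per kilobase, P4hb equalled 5.71 ± 0.102 times P4ha1 and P4ha2 together in WT day 3 and 6.60 ± 0.0886 times in WT day 7, against 3.85 ± 0.117 and 2.93 ± 0.362 times in the KO groups. The KO ranges of 3.70 to 3.96 and 2.59 to 3.38 lay below both WT ranges. P4ha3, the remaining catalytic subunit, was not a member of the set. It averaged 113, 80.8, 146 and 72.2 CPM in the same group order and ran against the other catalytic subunits, rising in WT (0.36, adjusted p = 6.91e-10) and falling in KO (-0.16, adjusted p = 0.000344, centred -0.08 with adjusted p = 0.0551).

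Serpinh1, which encodes the collagen chaperone HSP47, averaged 931, 3191, 896 and 3392 CPM and was 3.43-fold higher in KO at day 3 (adjusted p = 7.07e-28) and 3.79-fold higher at day 7 (adjusted p = 8.88e-29), with centred log2 values of 1.42 and 1.64. P3h1, Crtap and Ppib encode the complex that carries out prolyl 3-hydroxylation and helps the chain to fold. P3h1 averaged 75.4, 166, 82.9 and 238 CPM and was higher in KO at both days (1.14 and 1.52, adjusted p = 1.4e-21 and 9.94e-25, centred 0.53 and 0.94). Crtap averaged 218, 187, 265 and 231 CPM, and its differences of -0.22 and -0.20 became 0.02 and 0.02 when centred and 0.28 and 0.38 with the authors' sizes. Ppib was higher in KO at both days (0.32 and 0.77, adjusted p = 4.45e-10 and 8.38e-19, centred 0.56 and 0.99), so after centring P3h1 and Ppib had similar differences and Crtap stood near 0. P3h3 and Fkbp14 fell below WT at day 3 (-1.30 and -1.24, adjusted p = 1.59e-22 and 1.11e-17) and at day 7 (-0.69 and -1.02, adjusted p = 2.71e-16 and 2.74e-16). Their centred values were -0.93 and -0.87 at day 3 and -0.38 and -0.72 at day 7. Both rose between the days in KO, by 0.98 and 0.71, as did Tmem38b, which encodes a cation channel of the endoplasmic reticulum, by 0.92. In WT P3h3 and Fkbp14 rose by 0.37 and 0.49, and no change was called for Tmem38b (0.09, adjusted p = 0.471). P3h2, a relative of P3h1, had the lowest interaction of the list (-0.73, adjusted p = 2.14e-08).

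Of 12 genes for procollagen secretion and processing, 11 were measured, with 4 called higher and 7 lower in KO at day 3 (median -0.16) and 6 higher and 5 lower at day 7 (median 0.08). Between the days 4 rose and 4 fell in WT, and 4 rose and 6 fell in KO. Bmp1, the protease that removes the procollagen C-propeptide and activates Lox, averaged 436, 306, 461 and 274 CPM. It was lower in KO at day 3 (-0.51, adjusted p = 1.04e-12) and day 7 (-0.75, adjusted p = 1.18e-16). With the authors' sizes the values were -0.01 (adjusted p = 0.825) and -0.18, and centred they were -0.35 and -0.61. The uncentred difference at day 7 was opposite to that of Lox (0.72), but the centred one of Lox was not called (0.11). Tll1, which encodes a related protease, averaged 0.257, 1.11, 0.197 and 0.395 CPM and fell between the days in KO (-1.47, adjusted p = 5.26e-06). Pcolce, whose product enhances cleavage of the C-propeptide, rose between the days in WT (0.23, adjusted p = 2.94e-06) and KO (0.28, adjusted p = 6.84e-08). Its relative Pcolce2 averaged 0.458, 40.2, 0.247 and 14.9 CPM and was far higher in KO (6.41 and 5.90 on the log2 scale, adjusted p = 5.14e-28 and 1.44e-24). Adamts2, which cuts the N-propeptide, rose between the days in WT (0.70, adjusted p = 2.83e-17) and KO (1.54, adjusted p = 1.08e-25). Its relatives Adamts3 and Adamts14 fell in KO (-2.05 and -0.28, adjusted p = 1.86e-17 and 0.000214). In WT Adamts3 also fell (-0.35, adjusted p = 0.0014), and no change was called for Adamts14 (-0.07, adjusted p = 0.274). Creb3l1, which encodes a membrane-bound transcription factor of procollagen secretion, had an interaction of 0.91 (adjusted p = 4.72e-13).

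The list of the fibres that lysyl oxidases act on held 14 genes, namely fibrillar collagens, Eln and other elastic fibre proteins, not all of them substrates. Of these, 7 were higher and 5 lower in KO at day 3 (median 0.30), and 10 were higher and 4 lower at day 7 (median 0.89). Between the days 9 rose and 4 fell in each culture. Col1a1 and Col1a2, the chains of type I collagen, averaged 13192, 18759, 18141 and 31947 and 9454, 14368, 14727 and 28847 CPM in the order WT day 3, KO day 3, WT day 7 and KO day 7. Both were higher in KO at day 7 (0.82 and 0.97, adjusted p = 7.18e-15 and 2.65e-20). Col3a1, the chain of type III collagen, averaged 940.5, 3924, 2086 and 10554 CPM and was 5.06-fold higher in KO at day 7 (adjusted p = 2.94e-28). Col2a1, the chain of cartilage collagen, went the other way, at 4634, 35.4, 808 and 16.1 CPM, in the same group order. Col5a3 and Col11a2, minor fibrillar chains, rose between the days in KO (2.61 and 2.36, adjusted p = 2.99e-15 and 5.32e-18). In WT Col5a3 also rose (1.01, adjusted p = 3.37e-09), and no change was called for Col11a2 (-0.10, adjusted p = 0.381). Col11a1 was higher in KO at day 3 (1.26, adjusted p = 1.15e-23) and day 7 (1.49, adjusted p = 6.16e-26). Fbn2, which encodes a fibrillin, rose in WT (1.37, adjusted p = 1.84e-16) and less in KO (0.22, adjusted p = 0.00131), where libraries overlapped. Eln, which encodes elastin, averaged 0.0956 CPM in WT and 0.127 CPM in KO at day 3, and 1.86 CPM in WT and 8.48 CPM in KO at day 7 (log2 fold change 2.19 ± 0.16, adjusted p = 5.61e-13). Loxl1 was lower in KO at day 7, so the sign of its difference was opposite to that of elastin.

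The families were set against the transcripts of 5 fibrillar collagens, Col1a1, Col1a2, Col3a1, Col5a1 and Col5a2. The lysyl oxidases and lysyl hydroxylases made up a smaller part of this sum in KO than in WT of the same day. Col2a1 was not in the sum. It averaged 4634 CPM in WT and 35.4 CPM in KO at day 3, and 808 and 16.1 CPM at day 7. Including it would lower the percentages more in WT than in KO, by an amount not computed here. The 5 collagens summed to 5785 ± 130.0 CPM per kilobase in WT day 3, 8474 ± 355 in KO day 3, 7714 ± 323 in WT day 7 and 15468 ± 801 in KO day 7. The lysyl oxidases equalled 8.73% ± 0.0627 of that sum in WT day 3, 5.97% ± 0.444 in KO day 3, 6.24% ± 0.341 in WT day 7 and 2.77% ± 0.363 in KO day 7. Every KO day 7 library was below 3.25%, and every other library was above 5.47%. The lysyl hydroxylases, in the same group order, equalled 2.74% ± 0.0173, 2.06% ± 0.0905, 1.71% ± 0.0936 and 1.18% ± 0.0485, again lowest in KO day 7. P4ha1 and P4ha2 together equalled 2.01% ± 0.0477, 1.88% ± 0.119, 1.11% ± 0.0659 and 1.88% ± 0.384, so the KO day 7 libraries, from 1.46% to 2.34%, overlapped both day 3 groups and lay above WT day 7. These ratios are taken within a library, so they do not depend on the scaling, but they are not chromosome-centred. Transcript ratios say nothing of enzyme activity.

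**Figure D4:**
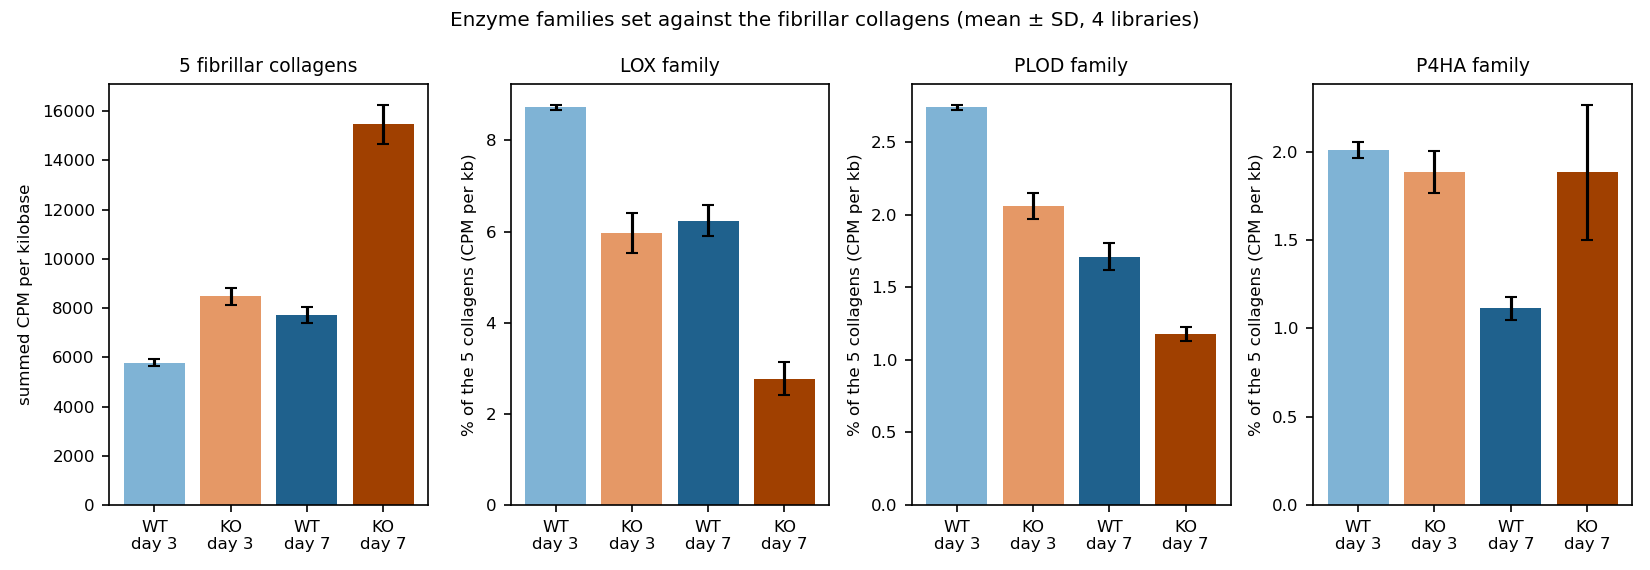
Left, summed CPM per kilobase of 5 fibrillar collagens by group, Col2a1 not among them. Right 3 panels, the summed CPM per kilobase of each enzyme family as a percent of that sum. Bars are means with 1 SD over 4 libraries and start at 0. The lysyl oxidases fall to 2.77% in KO day 7, while P4ha1 with P4ha2 stand at 1.88% in both KO groups.

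Hypoxia-responsive genes were set beside the enzymes, of which P4ha1, P4ha2, Lox, Loxl2, Plod1 and Plod2 belong to the known targets of hypoxia-inducible factors. At day 7 the genotype differences were 2.02 for P4ha1, 1.49 for P4ha2, 1.61 for Plod1 and 0.72 for Lox (centred 0.11, not called). No difference was called for Loxl2 (0.06) or Plod2 (-0.04), and Loxl2 fell between the days in KO (-1.33). The list of 14 hypoxia-responsive genes outside the set was chosen with earlier results of these data known. Of these, 12 were higher and 1 lower in KO at day 3 (median 1.40), and 13 were higher and 1 lower at day 7 (median 2.58). Of all genes, 43.0% were called higher and 43.4% lower in KO at day 3, and 41.7% and 44.3% at day 7. Between the days 9 fell and the other 5 were not called in WT (median -0.29), and 10 rose and 2 fell in KO (median 0.58). Medians of all genes lay between -0.03 and 0.01 in these comparisons. Ndrg1 averaged 10.6, 50.7, 5.65 and 288 CPM and was 50.9-fold higher in KO at day 7 (adjusted p = 1.77e-31). Car9, a carbonic anhydrase of the cell surface, stood under 1 CPM on average in WT day 3, KO day 3 and WT day 7 and at 70.3 ± 19.3 CPM in KO day 7. Ankrd37 averaged 0.852, 1.78, 0.328 and 11.9 CPM (log2 fold change 5.16 ± 0.26, adjusted p = 2.17e-14 at day 7), and the glycolysis gene Pgk1 fell between the days in WT (-1.05, adjusted p = 5.62e-06). Egln3, which encodes an oxygen-sensing prolyl hydroxylase of the factors themselves, averaged 3.27, 13.8, 1.15 and 40.7 CPM (log2 fold change 5.14 ± 0.33, adjusted p = 3.35e-09 at day 7). Adm, which encodes adrenomedullin, was the 1 that was lower in KO at both days (-1.04 and -1.56, adjusted p = 1.03e-08 and 6.94e-11). No oxygen measurement is among the data used here, and whether the enzymes and these genes have a shared cause was not tested.

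Cofactor supply was read from 5 measured genes of 6. Slc23a2, which takes up ascorbate, averaged 126, 54.7, 172 and 73.3 CPM and was 2.31-fold lower in KO at day 3 (adjusted p = 2.83e-23) and 2.35-fold lower at day 7 (adjusted p = 7.4e-24). Slc2a1, the glucose transporter GLUT1, which also carries oxidised ascorbate and is on the hypoxia list too, averaged 29.8, 117, 30.7 and 167 CPM and had the largest genotype difference of the list at both days (1.97 and 2.44, adjusted p = 1.26e-10 and 8.7e-12, centred 1.36 and 1.86). Slc31a1, which takes up copper, averaged 31.8, 63.2, 29.1 and 86.8 CPM and was higher in KO at both days (0.99 and 1.58, adjusted p = 1.14e-17 and 1.37e-22, centred 0.38 and 1.00). For Atp7a, the pump that loads copper into lysyl oxidases, no genotype difference was called (-0.08 and -0.00, adjusted p = 0.172 and 0.953), but centred values of 0.12 and 0.18 were (adjusted p = 0.0378 and 0.00177). Atox1, the chaperone that hands copper to that pump, was lower in KO at both days (-0.87 and -1.32, adjusted p = 6.38e-15 and 1.07e-18, centred -0.43 and -0.90). The list counted 2 genes higher and 2 lower in KO at each day, 2 that rose and 2 that fell between the days in WT, and 4 that rose and 1 that fell in KO.

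The 4 KO day 7 libraries did not resemble each other equally. Lox stood at 1349 and 1342 CPM in libraries 13 and 14 and at 1694 and 1591 CPM in libraries 15 and 16, and Plod2, P4ha1, P4ha2 and Loxl2 were likewise lower in the first pair. The other 5 enzymes had their lowest value in library 15. Among the hypoxia-responsive genes, Egln3 stood at 24.5, 31.6, 57.2 and 49.4 CPM, Bnip3 at 63.4, 78.7, 137 and 114 CPM, Pdk1 at 82.1, 102, 143 and 134 CPM and Car9 at 44.4, 68.1, 89.0 and 79.7 CPM, also lowest in library 13 and highest in library 15. Library 15 stood farthest from its group, with a chi-square per degree of freedom over genes of 17.88 with library 13 and 16.47 with library 14, where other pairs within groups had 2.33 to 9.17. Without library 15 the day 7 differences between genotypes were 0.65 for Lox, 1.94 for P4ha1, 1.41 for P4ha2 and -0.14 for Plod2 (adjusted p = 1.61e-12, 1.93e-17, 2.06e-08 and 0.0617). The part of the wells' condition in this spread was not tested.

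**Figure D5:**
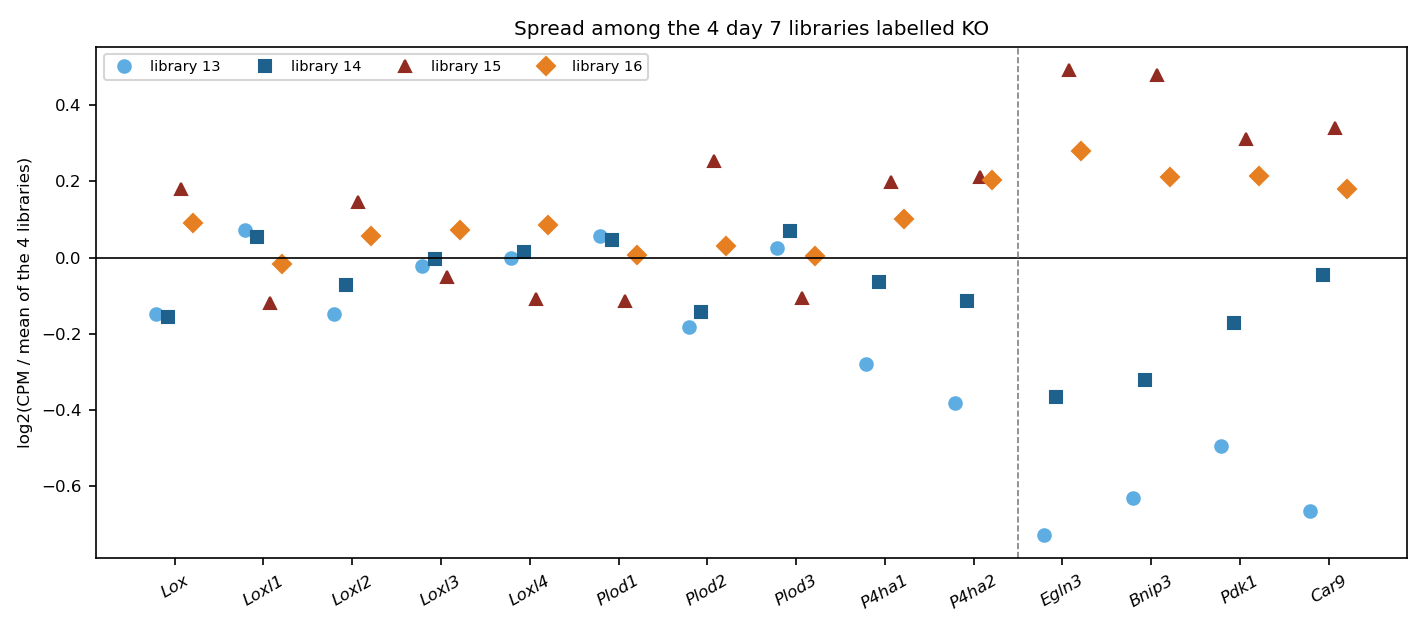
log2 of CPM in each KO day 7 library over the mean of the 4, for the 10 enzymes and, right of the dashed line, 4 hypoxia-responsive genes. Library 13 lies lowest and library 15 highest for Egln3, Bnip3, Pdk1 and Car9, and library 13 is also lowest for P4ha1 and P4ha2.

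The order of the enzymes per kilobase was led by Lox in every group, at 294 ± 3.45 CPM per kilobase in WT day 3, 300.2 ± 17.9 in KO day 3, 184 ± 5.22 in WT day 7 and 303 ± 35.8 in KO day 7. In WT day 3 it was followed by Loxl3 (120.2 ± 1.18), Plod3 (109 ± 4.46), Loxl1 (60.9 ± 3.02), P4ha2 (58.7 ± 1.26) and P4ha1 (57.6 ± 0.858), and the last 3 overlapped their neighbours. KO day 3 had P4ha1 (102 ± 3.03), Plod3 (98.6 ± 3.29) and Loxl1 (96.5 ± 3.95) next to Lox, again with overlapping ranges, and then Loxl2 (69.6 ± 3.51). In WT day 7 Loxl1 (133 ± 4.04) and Loxl3 (124 ± 3.64) came next, with no overlap. In KO day 7 P4ha1 (159 ± 22.5) and P4ha2 (130.5 ± 24.7) came next and overlapped each other, ahead of Plod3 (87.7 ± 4.47) and Plod1 (57.1 ± 3.04). Loxl3 moved from rank 2 in WT day 3 to rank 9 in KO day 3, and P4ha1 from rank 6 to rank 2.

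Likeness to other genes was measured as the distance between centred group means of log2 CPM over the 4 groups. It was taken among 10063 genes that reached 10 CPM in their highest group, leaving out duplicated symbols and provisional names such as those ending in Rik. With 4 points per gene, close likeness is common. For Loxl3, whose group means span 2.03 on the log2 scale, the nearest genes were Pmm1, Ei24 and Tcea3, at distances of 0.081 to 0.113. For P4ha1, with a span of 2.01, they were Gars, Aars and Shmt2, at 0.139 to 0.160. For Loxl2, with a span of 2.00, they were Zbtb20, Slc1a6 and Anxa1, at 0.314 to 0.413, so its pattern had no neighbour as close. Within the set the nearest pairs were Lox with Plod3 at 0.37 and Plod1 with P4ha1 at 0.43, while the member nearest to Loxl3 was Loxl4 at 1.74.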

How the data were processed

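RNA of 16 libraries was read as strand-specific paired ends after poly(A) selection, per the labels' protocols. The count columns hold whole reads per gene as the authors deposited them, and the tools and build listed in the submitters' processing notes are featureCounts, STAR 2.4.2a, edgeR and mm10. The columns the authors headed CPM are a deposited signal, found from the values to be counts over 1 constant per library. That constant was 1.181 to 1.348 times the total count in WT libraries and 0.745 to 0.841 times in KO libraries, so these columns served only as an alternative scaling.

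The main test was edgeR 4.0.16 (R 4.3.3): TMM factors of 0.949 to 1.05, a robust quasi-likelihood model of 4 group means over 16 libraries, and Benjamini-Hochberg adjustment over 13474 genes. The filter on low counts removed 0 genes, since every gene had a summed count of at least 105. Standard errors were derived from the test statistic and are approximate. The spread between wells was 4.25% on top of counting error, so even slight differences could be called. CPM per kilobase uses the deposited gene length. The fit was tested on simulated data with known changes.

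The 10 enzymes and all gene lists were chosen with earlier results of these data known. The text names all members, and of each list per comparison up to 3 called genes that changed most and reached 1 CPM in either group, plus anchors chosen with the lists. Ppib, Adm, Bnip3, Pdk1 and single marker genes were named after their values were seen. Libraries 1 and 1b, and 10 and 10b, differed by more than sampling noise (chi-square per degree of freedom 2.89 and 4.74) and entered separately. Alternatives were DESeq2 1.42.0, other size factors, the authors' sizes, centring by chromosome, other filters, a test against 1.5-fold, fits on the compared groups alone, summed same-numbered libraries and leaving out each library. Promoter windows came from RefSeq (GRCm38.p6) and were used for 5 of 10 members, with the start site 0 bases from the deposited gene start. Member windows on chromosome 18, where Lox lies, were left out.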

Additional observations from a re-analysis of the deposited data

Results flagged for a closer look

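For 9 of the 10 enzymes the genotype difference changed between day 3 and day 7 by a called interaction (edgeR quasi-likelihood test, Benjamini-Hochberg over all genes, log2 scale ± standard error). The difference of KO against WT shifted upward for Lox (0.69 ± 0.08), Loxl4 (0.41 ± 0.06), Plod1 (0.66 ± 0.06), Plod3 (0.37 ± 0.05), P4ha1 (1.20 ± 0.10) and P4ha2 (1.52 ± 0.15). For Loxl4 that shift narrowed the gap, from -0.46 to -0.05, and for Plod3 it changed the sign, from -0.15 to 0.22. The difference shifted downward for Loxl1 (-2.05 ± 0.06), Loxl2 (-1.95 ± 0.07) and Plod2 (-0.43 ± 0.12), the last not called with the authors' library sizes (-0.34, adjusted p = 0.0713). Of all genes, 32.5% had a called interaction above 0 and 33.5% one below 0. In 40 tests for a library far from the other 3 of its group, over the 10 enzymes and 4 groups, 0 were past Dixon's critical value for 4 samples.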

How the results depend on the processing

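All 50 results of the 10 enzymes in the 5 comparisons kept their direction and side of the threshold with DESeq2, relative log expression size factors, a mean count of at least 100 and summed same-numbered libraries, as did 40 of 40 in fits on the compared groups alone, which the interaction does not allow. A run with no filter was the main fit again, because the filter had removed 0 genes. With the authors' library sizes the median of all genes moved to 0.49 at day 3 and 0.55 at day 7, and 72.9% and 75.4% of called genes were higher in KO, against 49.7% and 48.5% before. With those sizes members called higher became 8 at day 3, 8 at day 7 and 2 between the days in WT, members called lower at day 3 became 1, and the signs turned for Loxl4 (0.04 at day 3, 0.53 at day 7), Plod3 (0.35) and P4ha2 (0.47) at day 3 and Plod2 (0.55) at day 7. They also made calls of Lox at day 3 (0.53) and Loxl2 at day 7 (0.64), and ended those of Loxl4 (0.03) and Plod2 (0.22) between the days in WT, Loxl3 (0.09) in KO and the Plod2 interaction (-0.34). Total counts only made a call of Loxl4 at day 7 (-0.17) and ended that of Loxl3 in KO (0.06), with the other 48 kept. Centring by chromosome turned Lox (-0.57) and P4ha2 (0.42) at day 3 and left Loxl3 at -0.00 between the days in KO, and it ended the call of Lox at day 7 (0.11). A test against 1.5-fold asks for larger changes by its construction. It called 5 members at day 3 (1 lower), 1 between the days in WT (1 higher, 0 lower), 4 in KO (2 higher) and 4 for the interaction (2 higher), and 30, 11, 24 and 17 list genes in these comparisons, where it called 5733, 1872, 4164 and 2794 of all 13474 genes. Leaving out 1 library at a time left 8 members called at day 3, 7 to 8 at day 7, 7 to 8 between the days in WT, 7 to 9 in KO and 9 for the interaction. No paired analysis was possible because the groups share no replicate numbers. Apart from the scalings named, the cause of these moves was not tested. Depth was not limiting for the enzymes, whose lowest count in a library was 1412.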

Other observations

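Marker lists of the labelled lineage and of other cells differed between the groups beside the enzymes. The 7 osteoblast markers summed to 14204 to 15127 CPM in WT day 3, 18571 to 20857 in KO day 3, 19958 to 21874 in WT day 7 and 37011 to 41807 in KO day 7, where P4ha1 and P4ha2 were also highest, and Bglap, which encodes osteocalcin, was under 1 CPM in both day 3 groups. Most of each sum was Col1a1, at 13192, 18759, 18141 and 31947 CPM on average, and at day 3 Sp7 (-0.92), Ibsp (-1.01), Spp1 (-1.10) and Bglap (-1.16) were lower in KO, opposite to the sum. At day 7 Sp7 was still called lower in KO (-0.25, but 0.32 with the authors' sizes), with overlapping libraries. Runx2, Alpl, Ibsp, Bglap, Spp1 and Col1a1 were higher in KO at day 7. The 4 measured adipocyte markers summed to 221 to 232 CPM in WT and 21.3 to 22.5 in KO at day 3, and to 121 to 137 and 24.4 to 26.4 at day 7. Of the endothelial list only Kdr was measured, at 0.135 to 0.346 CPM in WT day 3, 1.82 to 2.45 in KO day 3, 0.439 to 0.846 in WT day 7 and 12.8 to 13.9 in KO day 7. The part of these lists in the levels of the enzymes was not tested.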
